A study of Mus musculus with 12 samples.

Results

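Levels of 9 genes of the dual-specificity phosphatase family (Dusp1, Dusp2, Dusp4, Dusp5, Dusp6, Dusp7, Dusp10, Dusp14 and Dusp16) were followed in mouse CD4+ T cells. They were chosen by name, with earlier results of these data known. All 9 were found among the 23991 gene names of each expression file. The RNA came from male C57BL/6 mice aged 8 to 10 weeks, whose splenic or lymph node CD4+ T cells had been enriched with magnetic beads by negative selection. The 12 libraries form 4 groups of 3: Adcy10-/- cells in baseline medium with polarizing cytokines, WT cells in that medium, Adcy10-/- cells in baseline medium, and WT cells in baseline medium. Adcy10 encodes soluble adenylyl cyclase, an intracellular source of the second messenger cAMP. The comparisons address what the polarizing cytokines and the loss of Adcy10 did to T cells directed toward the Th17 lineage, which makes interleukin 17. All cells were kept for 18 hours on plates coated with anti-CD3 (10 µg/mL). As further additions the protocol names the cytokine IL-6 at 25 ng/mL, both IL-1β and IL-23 at 20 ng/mL, anti-CD28 at 2 µg/mL, and blocking antibodies to IL-4 and to interferon-γ at 1 µg/mL. It does not say which of these the baseline medium held. The labels do not say how the Adcy10-/- allele was made, nor whether the 3 libraries of a group came from separate animals, so p-values measure only the spread between these libraries.

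Dual-specificity phosphatases of this family remove phosphate from both the threonine and the tyrosine that switch a MAP kinase on. Many of them are themselves transcribed in response to MAP kinase signalling, which makes them a negative feedback on the kinases ERK, JNK and p38. In T cells, ERK is switched on by the antigen receptor through Ras, while inflammatory cytokines such as IL-1 feed mainly into JNK and p38. Dusp2, Dusp4, Dusp5 and Dusp1 encode inducible nuclear enzymes, and Dusp5 acts almost solely on ERK. Dusp6 and Dusp7 encode cytoplasmic ERK phosphatases, Dusp10 and Dusp16 act mainly on JNK and p38, and Dusp14 encodes a small atypical enzyme that restrains T cell receptor signalling.

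Promoter sequence was at hand for 8 of the 9 genes (RefSeq, mouse build GRCm38.p6, the 250 bases before the start), with no entry for Dusp4. The table lists 1 start for each of the 8, which for Dusp7, Dusp14 and Dusp16 is an internal start and not the outer end of the gene. The 3 sequences shown belong to Dusp5, the gene with the clearest change, to Dusp10, which lay on the opposite side, and to Dusp1, the classic immediate early member. Capitals mark matches, on either strand, to the cAMP response element half-site TGACG, to the full element TGACGTCA, which holds that half-site on both strands, or to the CArG box, the site of serum response factor. Dusp5 lies at chr19:53528895-53529144 (plus strand), Dusp10 at chr1:184034131-184034380 (plus strand) and Dusp1 at chr17:26508473-26508722 (minus strand), and each is written 5′ to 3′ along its own gene.
Dusp5: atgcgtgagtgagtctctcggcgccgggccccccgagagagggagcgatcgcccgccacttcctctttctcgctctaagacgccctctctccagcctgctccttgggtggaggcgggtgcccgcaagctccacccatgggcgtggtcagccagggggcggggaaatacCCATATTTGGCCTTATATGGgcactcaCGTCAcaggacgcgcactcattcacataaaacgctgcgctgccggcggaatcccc
Dusp10: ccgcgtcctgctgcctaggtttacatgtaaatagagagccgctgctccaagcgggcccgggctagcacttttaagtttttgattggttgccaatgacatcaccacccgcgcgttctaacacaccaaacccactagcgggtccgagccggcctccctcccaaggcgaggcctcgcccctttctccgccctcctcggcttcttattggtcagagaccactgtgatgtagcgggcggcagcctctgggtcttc
Dusp1: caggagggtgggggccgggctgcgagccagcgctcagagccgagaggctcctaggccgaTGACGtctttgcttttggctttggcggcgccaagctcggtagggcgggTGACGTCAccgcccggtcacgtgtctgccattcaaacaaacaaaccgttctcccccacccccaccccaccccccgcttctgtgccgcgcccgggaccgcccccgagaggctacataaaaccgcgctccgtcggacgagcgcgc
The Dusp5 sequence held 2 CArG boxes next to each other, 82 to 73 and 72 to 63 bases before the start, and 1 half-site 55 to 51 bases before it. Among 32851 mouse promoters of this length, 1.47% held a CArG box, and Dusp5 was the only one of the 8 members that did. The Dusp1 sequence held the full element 143 to 136 bases before the start, which 1.55% of promoters held, and a further half-site at 191 to 187 bases. A half-site was present in 17.8% of all promoters and in those of Dusp1, Dusp5 and Dusp16. None of the 8 members held the AP-1 site TGANTCA (6.75% of promoters), and Dusp14 alone held the STAT-type site TTCNNNGAA (7.02% of promoters). Dusp10 held none of these letters in this window, and neither did Dusp2, Dusp6 or Dusp7. These are matches of letters, not sites shown to be bound. The shares over all promoters were not matched for base composition. G and C made up a median of 52.4% of the bases over all promoters. Among the 8 members their share ran from 56.4% (Dusp6) to 77.2% (Dusp7), with 64% for Dusp5.

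Expression is given as FPKM, fragments scaled to transcript length and to the mapped fragments of the library, which allows levels of different genes to be compared per length. Per library, the values summed to between 547870 and 594750 FPKM, and 9778 to 9925 genes reached 1 FPKM. The steps between low values put the depth of the libraries within 1.4-fold of each other, at an estimated 19100000 to 26700000 fragments per library. Adcy10 itself was listed at 0 in all 12 libraries, so it gives no check of the genotype labels. All 10 CD4 T cell markers examined (among them Cd3e, Cd4 and Lck) were present and summed to between 1828 and 2291 FPKM. In bulk RNA, fewer cells of a type and less RNA per cell cannot be told apart.

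Dusp2 and Dusp5 were the most abundant of the 9 messages. Dusp2 stood first and Dusp5 second in 12 of 12 libraries, with means over all libraries of 86.1 ± 14.8 and 46.9 ± 13.3 FPKM (SD, n = 12). Together they made up 59.9 ± 3.996% of the summed level of the 9 genes in Adcy10-/- cells with cytokines and 60.6 ± 2.85% in WT cells with cytokines, against 68.4 ± 2.84% and 69.2 ± 1.66% in Adcy10-/- and WT cells in baseline medium (SD, n = 3 each). A middle tier held Dusp10 (18.7 ± 6.73 FPKM), Dusp7 (15.02 ± 0.861 FPKM), Dusp1 (13.0 ± 1.79 FPKM) and Dusp4 (12.3 ± 3.64 FPKM), each over 12 libraries. The order within that tier was not fixed. Dusp10 lay above Dusp7 in 8 of 12 libraries, Dusp7 above Dusp1 in 10, and Dusp1 above Dusp4 in 6. Dusp6 followed at 7.26 ± 1.18 FPKM, below Dusp4 in 11 of 12 libraries. Dusp16 (2.74 ± 0.373 FPKM) and Dusp14 (2.27 ± 0.784 FPKM) came last, and Dusp16 was above Dusp14 in 9 of 12 libraries. At the estimated depth, Dusp14 rested on 21 to 148 fragments per library and Dusp2 on 2247 to 4604, so counting error alone is far wider for Dusp14. The lower end takes the shortest listed transcript (1082 bases for Dusp14) and the upper end the longest (1571 bases). The Dusp14 range thus holds both transcript length and the spread between libraries, while Dusp2 had 1 listed transcript.

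**Figure D1:**
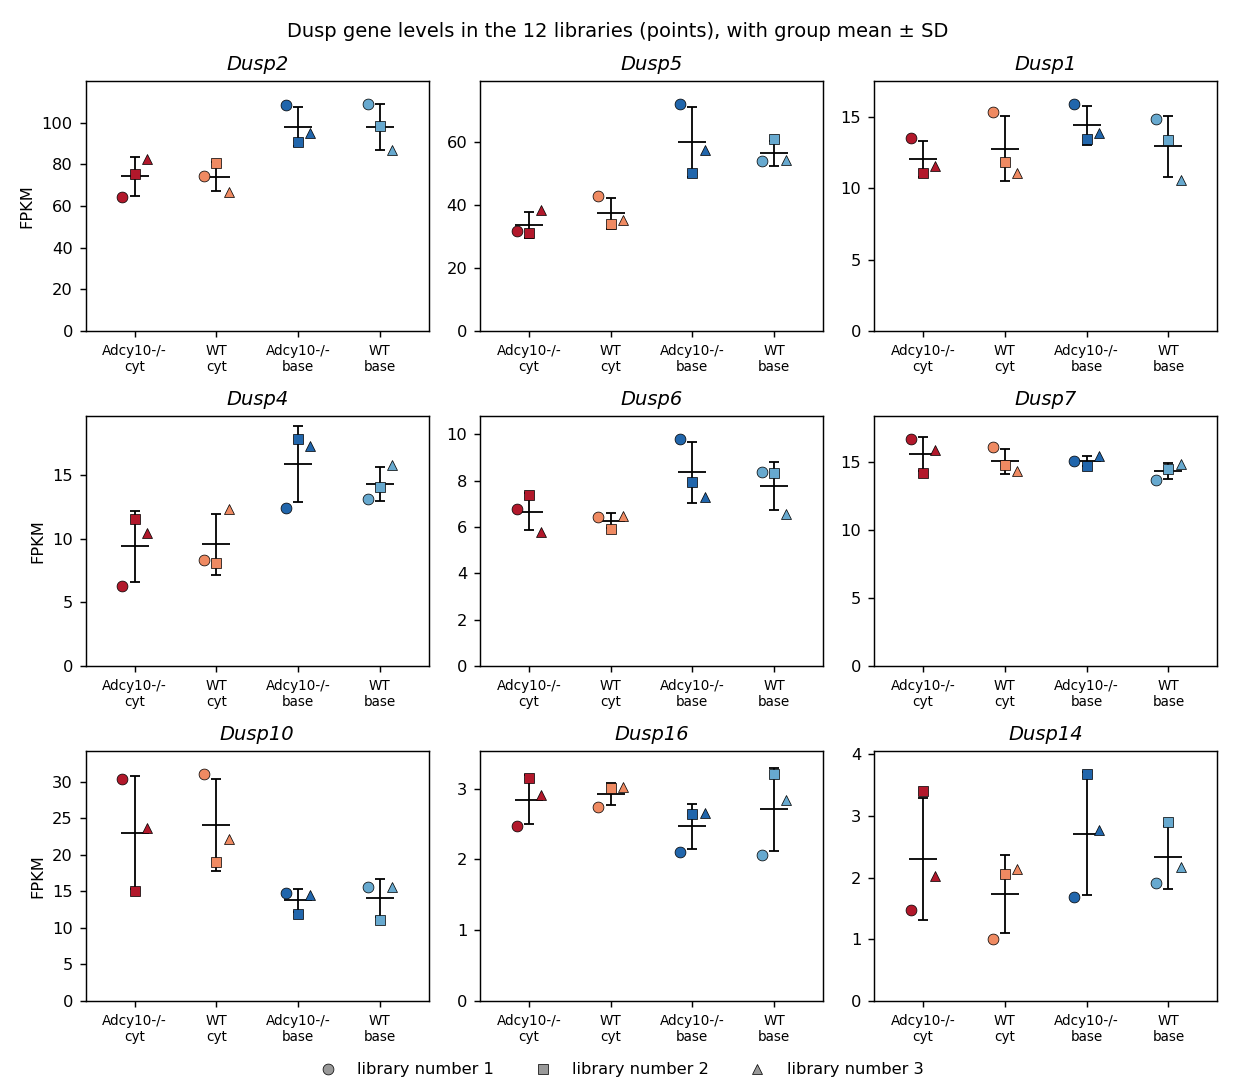
FPKM of each of the 9 Dusp genes (y axes, from 0) in the 4 groups, cyt being baseline medium with polarizing cytokines and base being baseline medium. Points are single libraries, with shape giving the library number, and bars are the group mean ± SD (n = 3). The libraries with cytokines lie below those of baseline medium of the same genotype for Dusp2, Dusp4 and Dusp5 and above them for Dusp10.

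The polarizing cytokines went with lower Dusp5 in both genotypes. Dusp5 was the only member to pass the test across all genes in either one (limma on log2(FPKM + 1), Benjamini-Hochberg adjusted p under 0.05). That is 1 of 9 members in Adcy10-/- cells, where 4.27% of the 10126 tested genes passed (2.12% by being lower), and 1 of 9 in WT cells, where 4.93% passed (2.28% by being lower). The median change of the 9 members was -0.24 on the log2 scale in Adcy10-/- cells and -0.26 in WT cells, against -0.02 and -0.01 over all tested genes. At an unadjusted p under 0.05, 5 of 9 members passed in each genotype, where 15.3% and 18.5% of all genes did in Adcy10-/- and WT cells. Because the members were chosen with earlier results of these data known, such shares describe the 9 genes and do not test them as a set.

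Dusp5, the nuclear ERK phosphatase, measured 31.7, 31.2 and 38.4 FPKM in the 3 Adcy10-/- libraries with cytokines, against 72.2, 50.3 and 57.6 FPKM in Adcy10-/- baseline libraries. In WT cells it measured 43.1, 33.9 and 35.2 FPKM with cytokines, against 54.0, 61.0 and 54.2 FPKM in baseline medium. The groups did not overlap in either genotype, and the highest of the 6 cytokine libraries lay below the lowest of the 6 baseline libraries. On the log2(FPKM + 1) scale Dusp5 fell by 0.80 in Adcy10-/- cells (SE 0.13, limma, Benjamini-Hochberg adjusted p = 0.00602) and by 0.59 in WT cells (SE 0.13, adjusted p = 0.0270). Mean levels with cytokines were 0.562 of the baseline mean in Adcy10-/- cells and 0.662 of it in WT cells. The WT call depended on single libraries, with an adjusted p of 0.0522 without WT baseline library 1, 0.127 without WT baseline library 2, 0.0997 without WT cytokine library 2 and 0.0826 without WT cytokine library 3. The Adcy10-/- call passed in each of the 12 fits that left out 1 library.

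Libraries of the same number and genotype deviated from their group means together, so each pair of the same number was also compared within a block. With library number as a block in limma, 4 of 9 members passed in each genotype, where 10.7% of all genes passed in Adcy10-/- cells and 14.8% in WT cells. The 4 were Dusp5, Dusp2 and Dusp4, which fell, and Dusp10, which rose. With a block that pairs only libraries of the same genotype and number, 5 of 9 members passed in Adcy10-/- cells, Dusp1 being the addition, where 11.8% of all genes did, and the same 4 in WT cells, where 15.5% did. The same 4 were the members whose libraries with cytokines did not overlap those of baseline medium in Adcy10-/- cells (21.6% of all genes). In WT cells Dusp6 joined them, giving 5 of 9 members where 20.8% of all genes did not overlap.

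Dusp2, a nuclear phosphatase found mainly in activated lymphocytes, measured 64.4, 75.3 and 82.8 FPKM in Adcy10-/- cells with cytokines, against 108.4, 90.6 and 95.01 FPKM in baseline medium. WT cells held 74.6, 80.6 and 66.8 FPKM of Dusp2 with cytokines, against 109.0, 98.2 and 86.8 FPKM in baseline medium. All 6 cytokine libraries lay below all 6 baseline libraries, by a narrow margin between the closest of them. The log2 change was -0.40 in both genotypes (SE 0.11 each), with Benjamini-Hochberg adjusted p from limma of 0.0718 in Adcy10-/- cells and 0.0666 in WT cells. With library number as a block, adjusted p was 0.0458 in Adcy10-/- cells and 0.0384 in WT cells.

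Dusp4, a nuclear phosphatase of ERK and JNK, measured 6.26, 11.5 and 10.5 FPKM in Adcy10-/- cells with cytokines, against 12.4, 17.9 and 17.3 FPKM in baseline medium. WT cells held 8.29, 8.08 and 12.3 FPKM of Dusp4 with cytokines, against 13.1, 14.1 and 15.8 FPKM in baseline medium. Library 1 was the lowest of the 3 in both Adcy10-/- groups and in WT baseline medium, and Dusp4 was lower with cytokines in 6 of 6 number pairs. The log2 change was -0.72 in Adcy10-/- cells (SE 0.21, limma, Benjamini-Hochberg adjusted p = 0.0904) and -0.55 in WT cells (SE 0.21, adjusted p = 0.173). With the block, adjusted p was 0.00875 in Adcy10-/- cells and 0.0238 in WT cells.

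Dusp1, a phosphatase induced early by many stimuli and active on JNK, p38 and ERK, measured 13.5, 11.1 and 11.6 FPKM in Adcy10-/- cells with cytokines, against 15.9, 13.4 and 13.9 FPKM in baseline medium. In WT cells it measured 15.4, 11.9 and 11.1 FPKM with cytokines, against 14.8, 13.4 and 10.6 FPKM in baseline medium. The groups overlapped in both genotypes. Its log2 change was -0.24 (95% interval -0.54 to 0.06) in Adcy10-/- cells and -0.02 (-0.31 to 0.28) in WT cells. In that block within genotype, limma gave a Benjamini-Hochberg adjusted p of 0.0245 for Dusp1 in Adcy10-/- cells and of 0.873 in WT cells.

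Neither cytoplasmic ERK phosphatase passed. Dusp6, which is itself a standard marker of ERK activity, measured 6.79, 7.37 and 5.79 FPKM in Adcy10-/- cells with cytokines, against 9.81, 7.94 and 7.32 FPKM in baseline medium. In WT cells Dusp6 measured 6.45, 5.90 and 6.46 FPKM with cytokines, against 8.39, 8.33 and 6.57 FPKM in baseline medium. It was lower with cytokines in 6 of 6 number pairs, but the Adcy10-/- groups overlapped slightly and the WT groups were almost in contact. Its log2 change was -0.29 in Adcy10-/- cells (SE 0.12, limma, Benjamini-Hochberg adjusted p = 0.248) and -0.26 in WT cells (SE 0.12, adjusted p = 0.254). Dusp7 was the steadiest of the 9, between 13.7 and 16.7 FPKM in all 12 libraries. Its cytokine change was 0.04 (95% interval -0.10 to 0.19) in Adcy10-/- cells and 0.06 (-0.08 to 0.21) in WT cells.

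Dusp10 lay on the opposite side. This phosphatase of JNK and p38 measured 30.4, 15.1 and 23.7 FPKM in Adcy10-/- cells with cytokines, against 14.8, 11.9 and 14.6 FPKM in baseline medium. In WT cells it measured 31.1, 18.99 and 22.1 FPKM with cytokines, against 15.5, 11.03 and 15.6 FPKM in baseline medium. Its group means with cytokines were 1.68 times the baseline mean in Adcy10-/- cells and 1.71 times in WT cells, and it was higher in 6 of 6 number pairs. The libraries with cytokines were widely spread, library 2 being the lowest and library 1 the highest in both genotypes, and Adcy10-/- library 2 with cytokines only just exceeded the highest baseline library of its genotype. The log2 change was 0.66 in Adcy10-/- cells (SE 0.24, limma, Benjamini-Hochberg adjusted p = 0.176) and 0.72 in WT cells (SE 0.24, adjusted p = 0.113). With the block, adjusted p was 0.00550 in Adcy10-/- cells and 0.00327 in WT cells. Dusp10 ranked behind Dusp2 and Dusp5 alone among the 9 genes in 6 of 6 cytokine libraries, where it exceeded Dusp7 each time, against 2 of 6 baseline libraries in which it exceeded Dusp7.

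Dusp16, the other JNK and p38 phosphatase, ranged from 2.48 to 3.16 FPKM in Adcy10-/- cells with cytokines, against 2.11 to 2.65 FPKM in baseline medium. In WT cells it ranged from 2.75 to 3.02 FPKM with cytokines, against 2.07 to 3.21 FPKM in baseline medium. The groups overlapped, with log2 changes of 0.15 (95% interval -0.11 to 0.41) in Adcy10-/- cells and 0.09 (-0.17 to 0.36) in WT cells. The atypical Dusp14 ranged from 1.47 to 3.40 FPKM in Adcy10-/- cells with cytokines, against 1.69 to 3.69 FPKM in baseline medium. In WT cells it ranged from 1.00 to 2.15 FPKM with cytokines, against 1.92 to 2.91 FPKM in baseline medium. Dusp14 was lower with cytokines in 6 of 6 number pairs, by 0.01 to 0.54 on the log2 scale, with broad overlap between groups and adjusted p of 0.861 in Adcy10-/- and 0.588 in WT cells (limma, Benjamini-Hochberg).

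**Figure D2:**
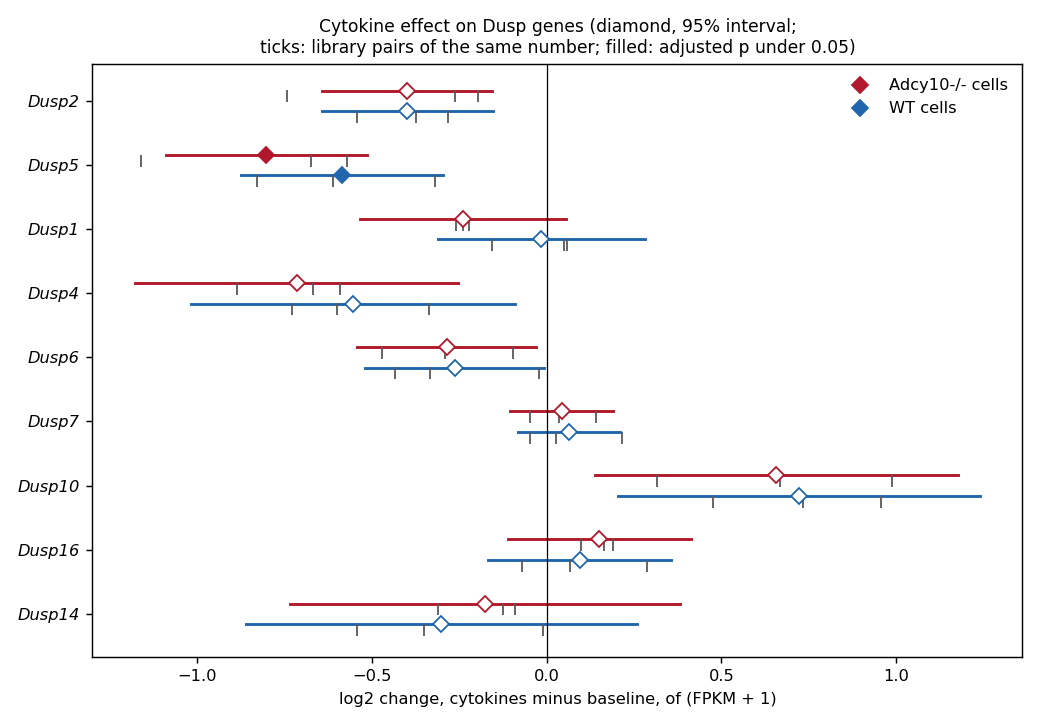
Cytokine effect on each Dusp gene as the log2 change of (FPKM + 1), cytokines minus baseline (x axis), in Adcy10-/- cells (red) and WT cells (blue). Diamonds are limma estimates with 95% intervals, filled where the adjusted p is under 0.05, and grey ticks are the 3 differences between libraries of the same number. Only the Dusp5 diamonds are filled, while all ticks of Dusp2, Dusp4, Dusp5, Dusp6 and Dusp14 lie below 0 and all ticks of Dusp10 lie above it.

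The summed level of the 9 genes was 180 ± 11.9 FPKM in Adcy10-/- cells with cytokines and 184 ± 13.3 FPKM in WT cells with cytokines, against 231 ± 20.0 FPKM and 223 ± 11.9 FPKM in Adcy10-/- and WT cells in baseline medium (SD, n = 3 each). The ratio of Dusp5 to Dusp10 was 1.58 ± 0.514 in Adcy10-/- cells with cytokines and 1.59 ± 0.202 in WT cells with cytokines, against 4.35 ± 0.474 and 4.16 ± 1.19 in Adcy10-/- and WT cells in baseline medium (SD, n = 3 each). The ratio spanned 1.05 to 2.07 in Adcy10-/- cells with cytokines, against 3.95 to 4.88 in Adcy10-/- baseline libraries, and 1.38 to 1.79 in WT cells with cytokines, against 3.47 to 5.53 in WT baseline libraries. This ratio joins a member that was lower with one that was higher, so it restates their levels and is no further test.

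Across the 12 libraries, which share the medium difference and library numbers, Dusp2 and Dusp5 had a Pearson r of 0.87 on the log2 scale. Dusp10 ran against Dusp4 (r = -0.81) and against Dusp14 (r = -0.79). Among 6942 better expressed genes, the 3 with the pattern most like Dusp5 over the 12 libraries were Gripap1, Tagap and Lrmp, with a Pearson r of 0.96 each.

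Some markers of other cell types moved with the medium, and so did part of the CD4 T cell list. Against the baseline library of equal number and genotype, Cd2 and Cd5 stood higher in 6 of 6 cytokine libraries. Cd4, Zap70 and Trat1 did so in 0 of 6, Lck in 4, and Cd3d, Cd3e, Cd3g and Cd28 in 3. Cd4 averaged 121.7 FPKM in Adcy10-/- cells with cytokines, against 161.9 FPKM in baseline medium. In WT cells it averaged 124.9 and 154.4 FPKM in the same order. The B cell sum and the mast cell and basophil sum stood higher in 1 of 6 each. The macrophage and monocyte list, of which 6 of 7 genes were found, 4 of them reached 1 FPKM and none was at 0 in every library, summed to 21.5 to 28.3 FPKM in Adcy10-/- cells with cytokines, against 15.4 to 20.5 FPKM in baseline medium. In WT cells that list spanned 29.25 to 103.5 FPKM with cytokines and 20.3 to 66.1 FPKM in baseline medium, with overlap. The NK cell list (5 of 5 genes found, none reaching 1 FPKM) summed to 0.450 to 0.549 FPKM in Adcy10-/- cells with cytokines, against 0.574 to 1.00 FPKM in baseline medium, and to 0.393 to 0.556 FPKM in WT cells with cytokines, against 0.693 to 0.864 FPKM in baseline medium. The neutrophil list had 4 of 5 genes found, 3 reaching 1 FPKM and none at 0 in every library. Its sum exceeded that of the baseline partner of the same number in 5 of 6 cytokine libraries. Of its genes, S100a8 did so in 6 of 6, S100a9 in 5, Elane in 4 and Mpo in only 1. That list spanned 0.911 to 15.6 FPKM in Adcy10-/- cells with cytokines, against 1.21 to 5.57 FPKM in baseline medium, and 11.7 to 60.2 FPKM in WT cells with cytokines, against 5.11 to 19.3 FPKM in baseline medium, with overlap in both genotypes. S100a8 averaged 4.55 ± 3.66 FPKM in Adcy10-/- cells with cytokines, against 1.42 ± 1.11 FPKM in baseline medium, and 12.2 ± 13.2 FPKM in WT cells with cytokines, against 3.76 ± 4.25 FPKM in baseline medium (SD, n = 3 each). The part of these markers in the Dusp changes was not tested. Libraries numbered 1 held few B cell transcripts. Without those 4 libraries 1 of 9 members, Dusp5, passed for the cytokine effect in each genotype (limma, Benjamini-Hochberg), as with all 12. The share of all genes that passed in that smaller fit is not reported here. An equal count cannot show what part B cells had, which was not tested.

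The other components of the pathway were read the same way, list by list. Each count of genes that passed stands beside the 4.27% of all tested genes in Adcy10-/- cells and 4.93% in WT cells. Of 10 further dual-specificity phosphatases that passed the filter (of 21), Ssh3, a cofilin phosphatase, rose in Adcy10-/- cells (log2 change 0.37, SE 0.08, limma, Benjamini-Hochberg adjusted p = 0.0173), with 0.19 (adjusted p = 0.181) in WT cells. The catalytically inactive Styx stood at -0.32 in WT cells (adjusted p = 0.137). None of the 10 fell. Of 5 other MAP kinase phosphatases, Ptpn5 rose by 0.35 in Adcy10-/- cells and by 0.44 in WT cells (adjusted p = 0.0303 and 0.00927). Of 3 Sprouty and Spred inhibitors of Ras signalling, none passed, with Spry1 at -0.34 and -0.30 (adjusted p = 0.596 and 0.547) and Spred1 at -0.10 and -0.12 in Adcy10-/- and WT cells.

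Upstream, the kinase gene Map3k8, whose product links inflammatory receptors to ERK, moved most. Map3k8 measured 13.9, 11.7 and 11.5 FPKM in Adcy10-/- cells with cytokines, against 4.47, 7.57 and 6.53 FPKM in baseline medium, and 15.3, 10.9 and 11.6 FPKM in WT cells with cytokines, against 5.93, 5.31 and 8.43 FPKM in baseline medium. The groups did not overlap, and Map3k8 rose by 0.91 on the log2 scale in Adcy10-/- cells (SE 0.19, adjusted p = 0.0187) and by 0.86 in WT cells (SE 0.19, adjusted p = 0.0234). Of 20 MAP2K and MAP3K genes it was the only one to pass in Adcy10-/- cells. In WT cells Map3k14, the kinase of noncanonical NF-κB signalling, rose as well (0.39, adjusted p = 0.0394), with 0.33 (adjusted p = 0.0796) in Adcy10-/- cells. Of 9 MAP kinases, the p38 gene Mapk11 rose by 0.38 in both genotypes (adjusted p = 0.0468 in Adcy10-/- cells and 0.0478 in WT cells) and the p38 gene Mapk12 rose by 0.49 in WT cells (adjusted p = 0.0146), with 0.36 (adjusted p = 0.0635) in Adcy10-/- cells. None of 17 Ras activation genes passed in either genotype, Rasa1, a Ras GTPase-activating protein, coming closest at -0.45 and -0.48 (adjusted p = 0.0845 and 0.0617) in Adcy10-/- and WT cells. Rras2, a gene of a Ras-type GTPase, followed at -0.24 in Adcy10-/- cells (adjusted p = 0.174). None of 8 substrate kinases passed either, the smallest adjusted p being 0.0932 for Rps6ka3 and 0.130 for Rps6ka1 in Adcy10-/- cells, and 0.0553 for Rps6ka4 and 0.0742 for Mapkapk2 in WT cells.

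Downstream, of 18 tested genes listed as immediate early, 3 fell and 1 rose in Adcy10-/- cells, and 4 fell and 1 rose in WT cells. Over all tested genes, 2.12% fell and 2.14% rose in Adcy10-/- cells, and 2.28% fell and 2.65% rose in WT cells. Egr3, a transcription factor induced by ERK, measured 8.76, 10.98 and 13.02 FPKM in Adcy10-/- cells with cytokines, against 19.9, 18.8 and 20.9 FPKM in baseline medium, and 12.2, 11.3 and 11.3 FPKM in WT cells with cytokines, against 18.3, 22.4 and 18.7 FPKM in baseline medium. All 6 cytokine libraries lay below all 6 baseline libraries, and Egr3 fell by 0.82 on the log2 scale in Adcy10-/- cells (adjusted p = 0.00242) and by 0.72 in WT cells (adjusted p = 0.00542). Fosb, an AP-1 subunit, fell by 0.96 and 0.82 (adjusted p = 0.0156 and 0.0295), and the nuclear receptor Nr4a3 fell by 1.08 and 1.12 (adjusted p = 0.0295 and 0.0233), in Adcy10-/- and WT cells. Ier3 rose by 0.68 in Adcy10-/- cells and by 0.82 in WT cells (adjusted p = 0.0250 and 0.00939). The median of this list was -0.13 in Adcy10-/- cells and -0.07 in WT cells, beside -0.02 and -0.01 over all tested genes.

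Of 10 genes listed as induced by stress kinases and cell stress, 2 fell in each genotype. Over all tested genes, 2.12% fell in Adcy10-/- cells and 2.28% in WT cells. The transcription factor Atf3 fell by 0.86 in Adcy10-/- cells and by 0.74 in WT cells (adjusted p = 0.00753 and 0.0154), and Gadd45b, an activator of the p38 and JNK cascades, fell by 0.75 and 0.46 (adjusted p = 0.000612 and 0.00927) in the same order of genotypes. Ddit3, a factor of the integrated stress response, rose by 0.56 in WT cells (adjusted p = 0.0206), with 0.39 (adjusted p = 0.0982) in Adcy10-/- cells. None of the genes that passed in a single genotype passed in the interaction. All these p-values are from limma with Benjamini-Hochberg adjustment over all tested genes.

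**Figure D3:**
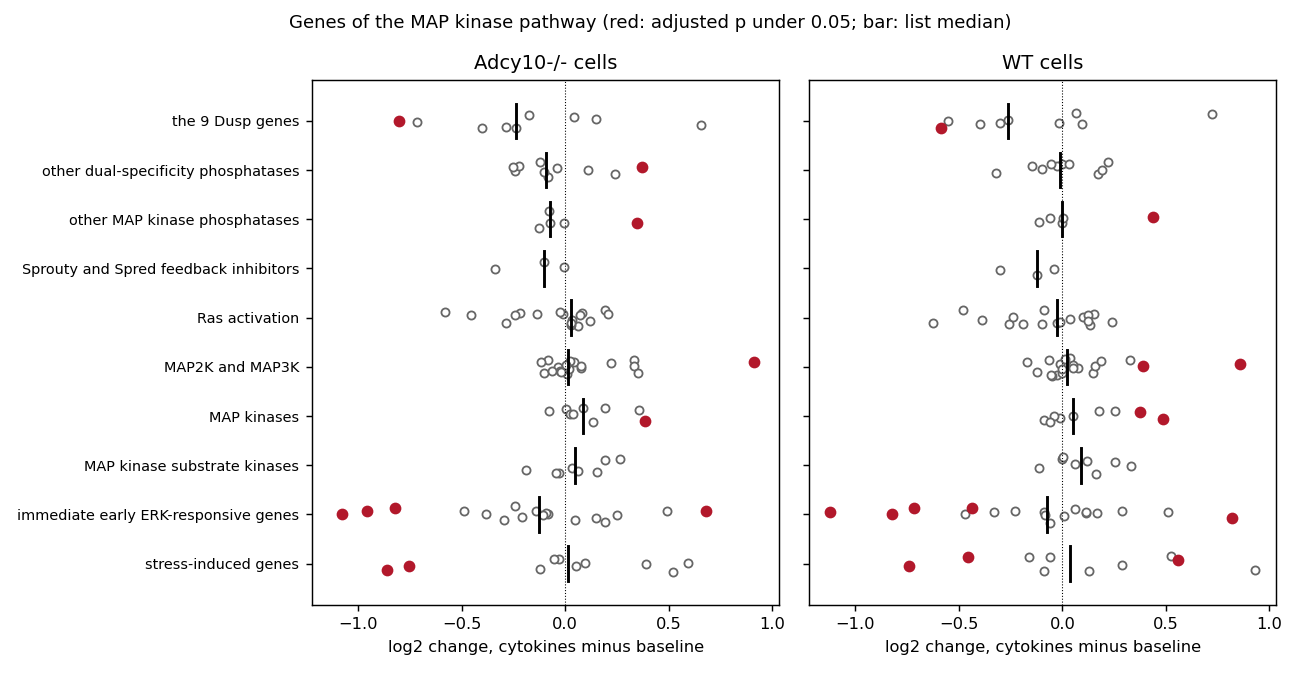
Log2 change of (FPKM + 1), cytokines minus baseline (x axes), of each tested gene of the 10 lists (rows) in Adcy10-/- cells (left) and WT cells (right). Points are genes, red where the adjusted p is under 0.05, and bars are list medians. The bar of the 9 Dusp genes sits at -0.24 and -0.26, and that of each other list lies between -0.13 and 0.09.

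Between genotypes none of the 9 genes passed. With limma and Benjamini-Hochberg adjustment, 0 of 9 members and 0% of the 10126 genes passed in Adcy10-/- against WT cells with cytokines, in baseline medium, or averaged over both media. At an unadjusted p under 0.05, 0 of 9 members passed in each of the 3, where 1.99% of all genes did with cytokines, 1.17% in baseline medium and 1.78% in the average. The libraries of the genotypes overlapped for 9 of 9 members in both media, while 5.08% of all genes did not overlap with cytokines and 4.99% in baseline medium. Log2 differences, Adcy10-/- minus WT, ran from -0.14 to 0.26 with cytokines and from -0.09 to 0.15 in baseline medium. With library number as a block, again 0 of 9 members passed in any of them, and over all genes the share was 0% in each medium and 0.0296% in the average.

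The intervals show what these data leave possible. Dusp2 was closest between genotypes, at 74.2 ± 9.25 FPKM in Adcy10-/- and 74.0 ± 6.92 FPKM in WT cells with cytokines, and at 98.0 ± 9.27 FPKM in Adcy10-/- and 98.0 ± 11.1 FPKM in WT cells in baseline medium (SD, n = 3 each). Its 95% interval ran from -0.24 to 0.24 with cytokines and from -0.24 to 0.25 in baseline medium on the log2 scale. Dusp5 differed by -0.14 with cytokines (-0.43 to 0.15) and by 0.07 in baseline medium (-0.21 to 0.36). For Dusp10 the intervals were wider, -0.60 to 0.43 with cytokines and -0.54 to 0.50 in baseline medium. Dusp14 had the largest estimate with cytokines, 0.26 (-0.30 to 0.82), at 2.30 ± 0.994 FPKM in Adcy10-/- and 1.74 ± 0.637 FPKM in WT cells, and Dusp1 the largest in baseline medium, 0.15 (-0.14 to 0.45), at 14.4 ± 1.33 FPKM in Adcy10-/- and 12.9 ± 2.14 FPKM in WT cells (SD, n = 3 each).

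The cytokine effect was also compared between genotypes. In the interaction (the effect in Adcy10-/- cells minus that in WT cells) 0 of 9 members and 0% of all genes passed, and at an unadjusted p under 0.05 it was 0 of 9 members where 1.11% of all genes passed (limma, Benjamini-Hochberg). The Dusp5 interaction was -0.22 with a 95% interval of -0.62 to 0.19. It ran from -0.33 to -0.08 with 1 library left out, but turned to 0.10 without the 4 libraries numbered 1, so its direction was not stable. Dusp1, which passed in Adcy10-/- cells alone with the block within genotype, had an interaction of -0.22 (-0.64 to 0.20), and in that block its adjusted p was 0.992. The interaction was -0.16 (-0.82 to 0.49) for Dusp4, -0.06 (-0.80 to 0.67) for Dusp10 and close to 0 (-0.35 to 0.34) for Dusp2. Macrophage and monocyte markers summed to 21.5 to 28.3 FPKM in Adcy10-/- cells with cytokines, against 29.25 to 103.5 FPKM in WT cells with cytokines. Most of that sum was Lyz2, at 19.6 ± 2.71 and 51.6 ± 36.8 FPKM in the same order (SD, n = 3 each). Dendritic cell markers (6 of 6 genes found, only 1 reaching 1 FPKM) summed to 0.617 to 1.46 FPKM against 1.56 to 2.19 FPKM in the same groups. The part of both marker lists in the genotype comparisons was not tested.

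**Figure D4:**
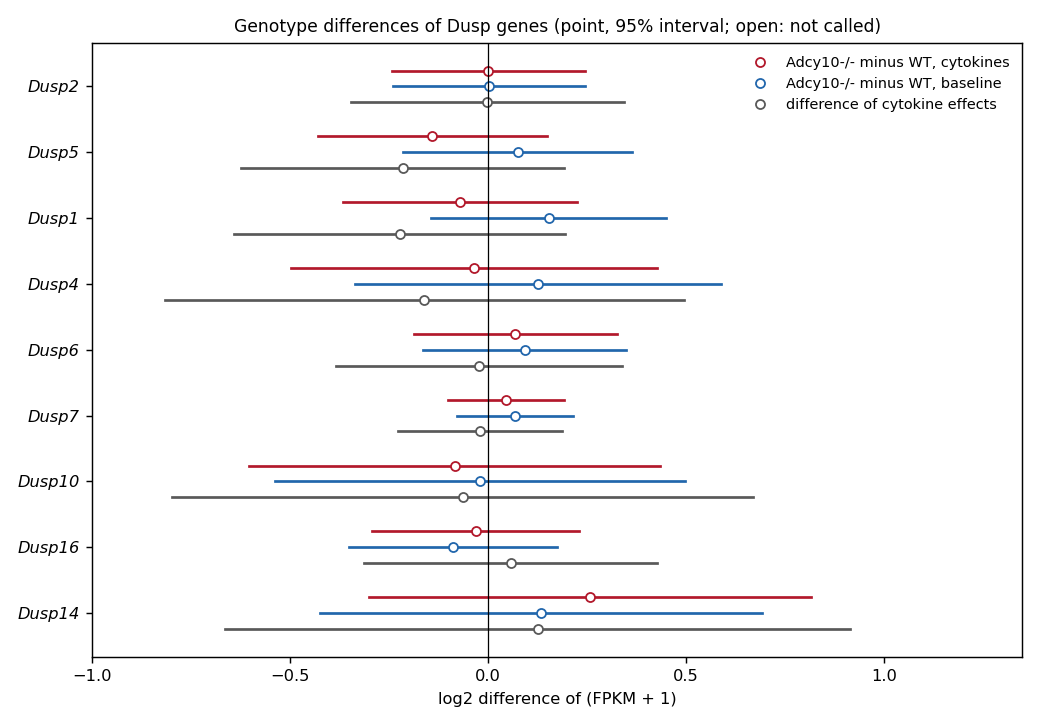
Log2 difference of (FPKM + 1) for each Dusp gene (x axis): Adcy10-/- minus WT with cytokines (red), Adcy10-/- minus WT in baseline medium (blue) and the difference of the cytokine effects (grey). Points are limma estimates with 95% intervals, and all are open because no adjusted p is under 0.05. Every interval crosses 0.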

How the data were processed

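Polyadenylated RNA of 12 libraries was used, 3 in each of 4 groups set by the labels. The authors deposited FPKM values per gene. The tools, per the submitters' processing notes, were STAR 2.4.0f1, SAMtools 0.1.19, Cufflinks and HTSeq on mouse build mm9; whether counting used strand is not given in the sources used here. Each file held 24488 entries for 23991 names, and the entries of 258 repeated names (no Dusp member) were summed. Depth was estimated from the steps between low FPKM values: 73.9% to 76.3% of the ratios between low values of 968 to 1056 genes, in each of the other libraries against WT baseline library 1, lay within 1% of a ratio of whole numbers up to 6. The conversion to fragments used transcript lengths of another annotation, so it is approximate, and no count test was run.

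Values were taken as log2(FPKM + 1), which understates changes of low genes. Genes reaching 1 FPKM in 3 or more libraries (10126) were fitted as 4 group means with limma 3.58.1 (R 4.3.3, with the package data.table at version 1.17.8; variance trend). p-values were adjusted with Benjamini-Hochberg over all of them, at a threshold of 0.05. All 9 members passed the filter. The code was tested on simulated data. Residual correlations of the 6 pairs with equal number and genotype were 0.294 to 0.536, so the blocked fit stands beside the cytokine effects. Python 3.11.15, numpy 2.4.6, pandas 2.3.3 and matplotlib 3.10.9 served for plots and summaries.

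Members and gene lists were chosen with earlier results of these data known. The genes named are all 9 members, from each list at most 4 genes that passed, by size of change (the 2 smallest p where none passed, of which 1 gene is not reported here), and the 3 genes most like a called member. Promoters were matched by symbol to RefSeq tables of build GRCm38.p6; no coordinates were taken from the expression files.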

Additional observations from a re-analysis of the deposited data

How the results depend on the processing

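Alternatives were another pseudocount (0.1), no filter on low values, median-ratio scaling, quantile normalization, the largest entry of a repeated name, no variance trend, only the 2 groups compared, a replicate block over all libraries or within genotype, each library left out in turn and, chosen after seeing the data, the 4 libraries numbered 1 left out. The count of members that passed for the cytokine effect was 4 with the replicate block and 5 with the block within genotype in Adcy10-/- cells, and 4 with either block in WT cells. It was 0 in WT cells with no filter on low values (Dusp5 adjusted p = 0.0622, limma, Benjamini-Hochberg). Leaving out 1 library gave 1 to 2 members in Adcy10-/- cells and 0 to 2 in WT cells. The shares of all genes that passed without the filter, or with 1 library left out, are not reported here. Whether these counts moved with those of all genes therefore cannot be read from them. The second member was Dusp10 without Adcy10-/- cytokine library 2 (adjusted p = 0.0460) and Dusp2 without WT baseline library 3 (adjusted p = 0.0415). The genotype and interaction counts were 0 of 9 under each of these alternatives that applies; the fit of 2 groups has no average or interaction, and the block within genotype has no genotype comparison.

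Signs were followed for the cytokine changes of all 9 members and for the interactions of Dusp1, Dusp2, Dusp4, Dusp5 and Dusp10. Of the genotype differences, only those of Dusp1 in baseline medium and of Dusp14 with cytokines were followed. Among these, none of the values whose sign turned had passed the test. Without the libraries numbered 1, the cytokine change of Dusp7 was -0.0076 in Adcy10-/- cells and -0.0121 in WT cells, that of Dusp16 in WT cells was -0.0032, and the interactions of Dusp2 and Dusp5 were 0.0979 and 0.0971. Quantile normalization gave 0.0013 for Dusp1 in WT cells and 0.0479 for the Dusp2 interaction, which was 0.0070 with median-ratio scaling. With 1 library left out, the cytokine change ran from -0.4045 to 0.0124 for Dusp14 and from -0.0065 to 0.1033 for Dusp7 in Adcy10-/- cells, and from -0.1468 to 0.082 for Dusp1 and -0.0366 to 0.1925 for Dusp16 in WT cells. The interaction ran from -0.0838 to 0.0951 for Dusp2, -0.317 to 0.0802 for Dusp4 and -0.2829 to 0.2006 for Dusp10. The cause was not tested. Estimated counting error was widest for Dusp14 and Dusp16, with as few as 21 and 174 estimated fragments in a library. Dusp14 was also lowest in library 1 of each group. The part of depth or library number in the turned signs was not tested.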
